A study of Mus musculus with 4 samples.

Results

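Classical MHC class I and II antigen presentation was followed here through 36 genes, taken by symbol from the deposited gene table. All 36 symbols are among the 24421 rows of that table. They comprise 12 genes of class I chains and peptide loading, 5 of the immunoproteasome, 12 of class II chains and their loading, 4 regulators of class II and 3 costimulatory or coinhibitory ligands. The samples were 4 polyA RNA-seq libraries from 8-week C57BL/6 mice, 2 of the genotype Usp25+/+ (WT-139, WT-140) and 2 of the genotype Usp25-/- (KO-826, KO-850). All 4 mice, controls included, had dextran sulfate sodium (DSS, a polymer that injures the gut lining) at 2.5% for 5 days and then plain water for 2 days, so an untreated state was not analysed here. Each library is labelled as a short segment of distal colon, and the sources used here do not say how the Usp25 allele was made or give litters and sexes. Usp25 codes for a deubiquitinating enzyme, and the comparison asks how its loss alters the transcriptome after DSS.

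Class I molecules carry peptides of cytosolic proteins to CD8 T cells. Proteasomes cut those proteins, and in inflamed cells the immunoproteasome subunits replace the constitutive catalytic ones. The TAP pump moves the peptides into the endoplasmic reticulum, where tapasin, calreticulin, calnexin and Pdia3 help to load them onto a heavy chain bound to beta-2 microglobulin. Class II molecules carry peptides of engulfed proteins to CD4 T cells and are made mainly by dendritic cells, macrophages and B cells. Their chains assemble with the invariant chain Cd74, which cathepsin S trims, and H2-DM exchanges its last fragment for a peptide. Interferon gamma raises both routes, through Irf1 and Nlrc5 for class I and through Ciita with the RFX and NF-Y complexes for class II.

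Promoter sequence shows the letters through which these regulators are known to act, so the 150 bases before the start are given for 3 class II and 4 other genes. They are RefSeq sequences of build GRCm38.p6, a later build than the mm9 of the deposited values. The table holds promoters for 28 of the 36 genes and lacks Tap2, Tapbpl, Nlrc5, H2-Ab1, Cd74, Ciita, Rfxap and Cd86. Capitals mark matches, on either strand, to a Y box (ATTGG), an X box core (AGNNACNGA), a gamma-activated site (TTCNNNGAA), the core of an interferon-stimulated response element (GAAANNGAA) or an NF-kappaB motif (GGGANTNCC).
H2-Eb1, chr17:34305717-34305866, plus strand: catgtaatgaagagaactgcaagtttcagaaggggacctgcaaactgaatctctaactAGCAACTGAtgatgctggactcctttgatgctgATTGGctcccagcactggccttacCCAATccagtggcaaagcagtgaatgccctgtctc
H2-DMb1, chr17:34153041-34153190, plus strand: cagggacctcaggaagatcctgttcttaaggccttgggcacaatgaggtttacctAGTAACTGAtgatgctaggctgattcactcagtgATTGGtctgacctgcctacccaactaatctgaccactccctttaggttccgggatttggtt
H2-Aa, chr17:34287824-34287973, minus strand: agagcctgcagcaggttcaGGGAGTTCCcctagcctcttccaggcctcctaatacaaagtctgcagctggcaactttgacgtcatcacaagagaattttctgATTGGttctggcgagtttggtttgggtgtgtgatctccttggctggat
H2-K1, chr17:34000348-34000497, minus strand: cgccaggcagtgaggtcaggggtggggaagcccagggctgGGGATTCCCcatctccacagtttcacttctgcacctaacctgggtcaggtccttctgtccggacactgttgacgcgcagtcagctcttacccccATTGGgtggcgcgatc
B2m, chr2:122147537-122147686, plus strand: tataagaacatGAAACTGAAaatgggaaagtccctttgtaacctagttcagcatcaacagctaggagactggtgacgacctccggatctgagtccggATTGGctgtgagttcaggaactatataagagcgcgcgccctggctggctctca
Psmb8, chr17:34198045-34198194, plus strand: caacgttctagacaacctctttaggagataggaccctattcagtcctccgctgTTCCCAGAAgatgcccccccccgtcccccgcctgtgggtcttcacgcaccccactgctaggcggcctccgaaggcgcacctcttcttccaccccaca
Cd274, chr19:29367288-29367437, plus strand: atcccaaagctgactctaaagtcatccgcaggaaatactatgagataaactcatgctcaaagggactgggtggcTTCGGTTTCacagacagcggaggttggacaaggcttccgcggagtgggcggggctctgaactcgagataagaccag

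Within the 250 bases before the start, the Y box stood in 19 of the 28 genes and in 33.8% of the 32851 promoters of the table. The X box core stood in 5 of the 28 (Psmb10, H2-Eb1, H2-Eb2, H2-DMb1 and H2-Oa) and in 14.7% of all promoters. An X box core followed on the same strand by a Y box, with 15 to 30 bases between, stood in H2-Eb1, H2-Eb2 and H2-DMb1 and in 0.134% of all promoters, a spacing set after the sequences had been seen. Between the boxes lay 24 bases in H2-Eb1 and H2-Eb2 and 25 in H2-DMb1. The interferon-stimulated core stood in B2m, Erap1, Ctss and Cd274 (7.13% of all promoters), the gamma-activated site in Psmb8 and H2-DMb2 (7.02%) and the NF-kappaB motif in H2-K1, H2-D1 and H2-Aa (3.36%). A match describes the letters alone and is not a measurement of binding.

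Usp25 matched the genotype labels, at 38.5 and 16.6 FPKM (fragments scaled to transcript length and to the mapped fragments of the library) in Usp25+/+ and 2.65 and 1.71 FPKM in Usp25-/- mice. The 4 columns sum to between 526652 and 565645 FPKM, and read totals are not part of the table. WT-139 had 3865 genes listed at 0, against 7179 to 8818 in the other 3. The labelled tissue was not borne out by its markers. Of 10 colon genes, Zg16, Aqp8 and Cdx1 were listed at 0 in every mouse and only Krt20 reached 1 FPKM in at least 2 mice, while the 10 genes of a lung epithelium list summed to between 2292 and 5324 FPKM. Mouse WT-139 differed from the other 3 in neutrophil genes. The 8 listed neutrophil genes found in the table summed to 40329 FPKM there, against 709 in WT-140 and 1979 and 1171 in the Usp25-/- mice.

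Transcripts of the class I route were mostly lower in Usp25-/- mice, and those of the class II chain and loading genes overlapped between the genotypes for 10 of the 11 tested, all but H2-Oa. No gene passed the threshold. After Benjamini-Hochberg adjustment at 0.05, limma called 0% of 12103 genes, and so 0 of the 35 antigen presentation genes that reached 1 FPKM in at least 2 mice. At an unadjusted p under 0.05, limma gave 128 lower genes (1.06%) and 272 higher (2.25%), 400 in all, and 2 of the 35, Tap2 and Psmb9, both lower. By the sign of the log2 difference, 22 of the 35 were lower in Usp25-/- mice, or 62.9%, against 46.4% of all genes tested. Both Usp25-/- mice were below both Usp25+/+ mice for 14 of the 35, or 40.0%, against 14.7% of all genes tested. The opposite separation held for 2, Canx and Pdia3, against 19.0% of all genes. The median log2 difference was -0.66 over the 17 class I, loading and immunoproteasome genes, 0.17 over the 15 tested class II genes and 0.03 over all genes tested. In whole tissue, fewer cells of a type and less RNA per cell cannot be told apart.

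**Figure D1:**
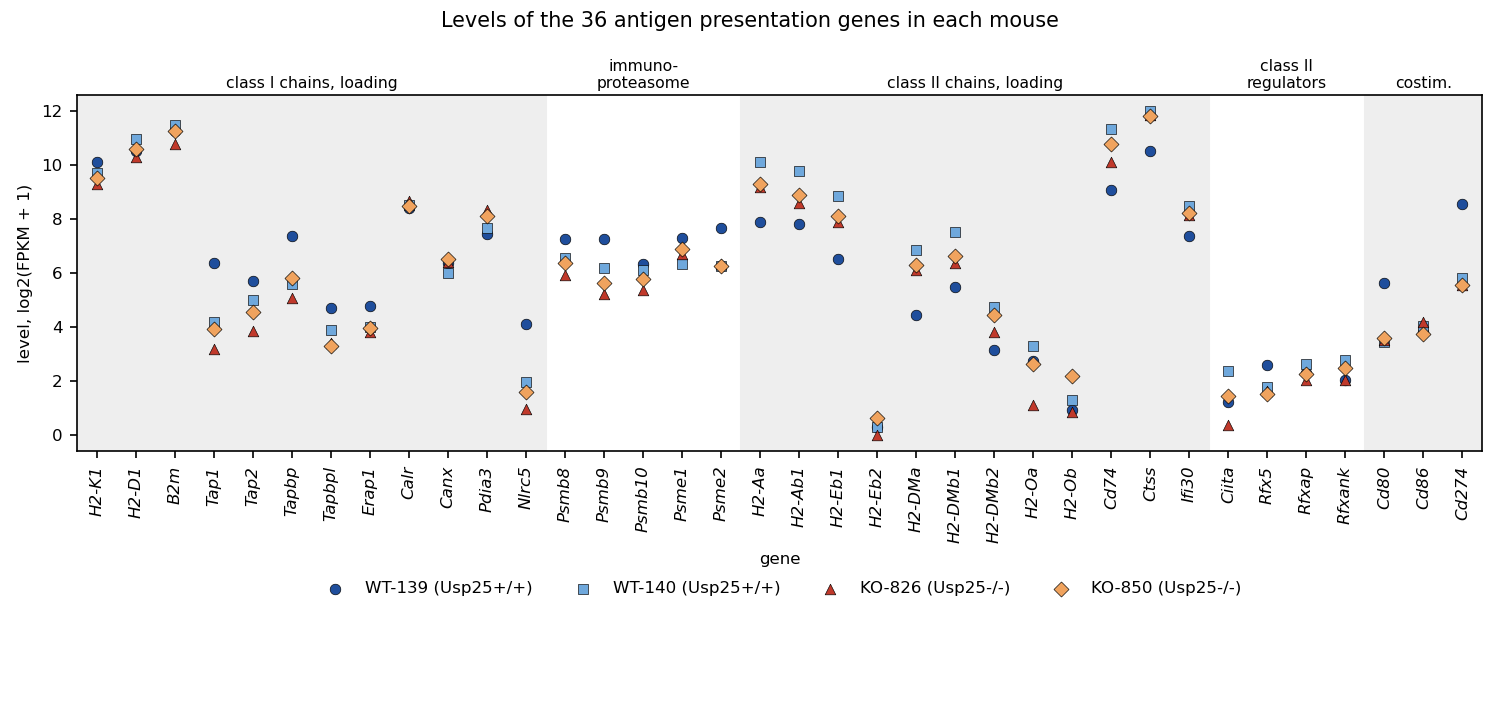
Levels of the 36 antigen presentation genes, plotted vertically as log2(FPKM + 1), where each point is 1 mouse and shading that separates the 5 gene groups. WT-139 is the highest mouse for most class I genes and the lowest for 9 of the 11 tested class II chain and loading genes.

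The heavy chains and beta-2 microglobulin were among the most abundant transcripts of the group. Levels are given in the order WT-139 and WT-140 against KO-826 and KO-850. H2-K1, a class I heavy chain gene (chr17:34132962-34137278 in mm9), stood at 1092 and 839 FPKM in the Usp25+/+ pair of mice against 630.2 and 739 FPKM in the Usp25-/- pair. The groups did not overlap, and the log2 difference was -0.49 ± 0.39 (SE), or -0.30 without WT-139. H2-D1, the other heavy chain gene (chr17:35399675-35404444), stood at 1448 and 1978 against 1252 and 1540.1 FPKM. Here KO-850 lay between the Usp25+/+ mice. B2m, the light chain shared by all class I molecules, stood at 2448 and 2851 against 1741 and 2431 FPKM, and KO-850 was close below WT-139. Of the distinct 50-base windows in annotated coding transcripts, 7.29% of those of H2-K1 and 12.8% of those of H2-D1 also occur in another gene, chiefly each other and the H2-Q genes. The sources used here do not say how the authors assigned shared reads, so the levels of the heavy chains are uncertain to that extent.

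Tap1 and Tap2 varied more over the 4 mice than the chains did. Tap1, a subunit of the peptide pump (chr17:34324498-34334170), stood at 81.7 and 17.1 against 8.04 and 14.3 FPKM. Its log2 difference was -1.72 ± 0.77 (SE), with a limma adjusted p of 0.968. The groups did not overlap, but WT-139 stood far above the rest and WT-140 was near KO-850, and without WT-139 the difference was -0.63. Tap2, the partner subunit, stood at 51.3 and 31.3 against 13.4 and 22.3 FPKM, a difference of -1.17 ± 0.41 on the log2 scale that was -0.82 without WT-139. The Tap2 values did not overlap and spread less within Usp25+/+ than those of Tap1.

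Tapasin (Tapbp), which bridges TAP and the heavy chain, stood at 162 and 47.5 against 32.3 and 54.4 FPKM. Its groups overlapped, since KO-850 exceeded WT-140. Tapbpl, a tapasin-like peptide editor, stood at 24.7 and 13.8 against 9.66 and 8.79 FPKM, with no overlap. Erap1, a peptidase that trims peptides in the endoplasmic reticulum, stood at 26.4 and 14.8 against 12.9 and 14.6 FPKM, so that only WT-139 was clearly above the others. Nlrc5, the transactivator of class I genes, stood at 16.1 and 2.93 against 0.930 and 1.99 FPKM. It showed the same order as Tap1, with a log2 difference of -1.77 ± 0.74 (SE) that was -0.71 without WT-139.

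Of the 3 general chaperones of the loading complex, Pdia3 and Canx had higher values in both Usp25-/- mice, and Calr overlapped. Pdia3, a disulfide isomerase, stood at 173 and 200.3 against 324 and 277 FPKM, a log2 difference of 0.68 ± 0.33 (SE) with no overlap. Canx, the lectin chaperone calnexin, stood at 81.1 and 62.5 against 83.9 and 91.5 FPKM. Calr, its soluble relative calreticulin, stood between 341 and 403 FPKM in all mice, and its groups overlapped. Among 12 other genes of peptide trimming and endoplasmic reticulum chaperoning, 6 were higher, 6 lower and 0 at an unadjusted p under 0.05. The 2 with the smallest p were Pdia4, a disulfide isomerase at 43.7 and 56.6 against 81.4 and 78.6 FPKM, and Thop1, a cytosolic oligopeptidase at 6.15 and 6.76 against 15.5 and 8.04 FPKM.

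The catalytic immunoproteasome subunits were lower in both Usp25-/- mice. Psmb9 (chr17:34318933-34324709) stood at 151 and 72.4 against 36.7 and 48.6 FPKM. Its log2 difference was -1.29 ± 0.45 (SE), with a limma adjusted p of 0.968, and -0.77 without WT-139. Psmb8 (chr17:34334666-34338399) stood at 149.9 and 93.0 against 59.0 and 82.3 FPKM. Psmb10 stood at 79.5 and 67.8 against 39.8 and 53.5 FPKM, the smallest gap between the Usp25+/+ mice of the 3. In each of these genes KO-826 was lowest and WT-139 highest. The Psmb9 and Tap1 gene records overlap on opposite strands, and the sources used here do not state strandedness, so reads in the overlap cannot be told apart.

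The activator genes Psme1 and Psme2, whose products cap the proteasome, did not separate the genotypes. Psme1 stood at 157 and 79.6 against 102 and 116 FPKM, with both Usp25-/- mice between the Usp25+/+ mice. Psme2 stood at 203 FPKM in WT-139, while the other 3 mice lay between 75.8 and 79.1 FPKM. Of its 50-base windows 54.9% also occur in the transcript annotated as Psme2b-ps, which makes its level uncertain.

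Relative to the constitutive subunits they replace, the immunoproteasome subunits kept this order. The constitutive genes Psmb5, Psmb6 and Psmb7 together summed to 320 and 378 against 427 and 335 FPKM, with overlap. The ratio of the 3 immunoproteasome genes to these 3 was 1.19 and 0.618 in Usp25+/+ and 0.317 and 0.551 in Usp25-/- mice. On the log2 scale the mean was -0.22 ± 0.67 against -1.26 ± 0.56 (SD, n = 2), a difference of -1.04. An exact two-sided permutation test gave p = 0.333, the smallest this design allows. The gap between WT-139 and WT-140 was nearly as large as that difference, and without WT-139 the difference was -0.56. A ratio within a library does not depend on scaling between libraries. Each pair showed the same ranking of the mice, from Psmb9 over Psmb6 at 1.13, 0.412, 0.206 and 0.364 to Psmb10 over Psmb7 at 0.883, 0.676, 0.344 and 0.530, in the order of WT-139, WT-140 and the Usp25-/- mice KO-826 and KO-850. The 11 core subunits common to both forms, Psma1 to Psma7 and Psmb1 to Psmb4, all had log2 differences above 0. So had 6484 of the 12103 genes tested. KO-826 was the highest mouse for 10 of the 11. Both Usp25-/- mice were above both Usp25+/+ mice for 3 of the 11, against 19.0% of all genes tested. The median over the 11 was 0.21, and 0 of the 11 had an unadjusted p under 0.05 by limma. The 2 with the smallest p were Psma1, at 102 and 117 against 159 and 144 FPKM, and Psma3, at 78.2 and 63.4 against 112 and 71.3 FPKM.

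**Figure D2:**
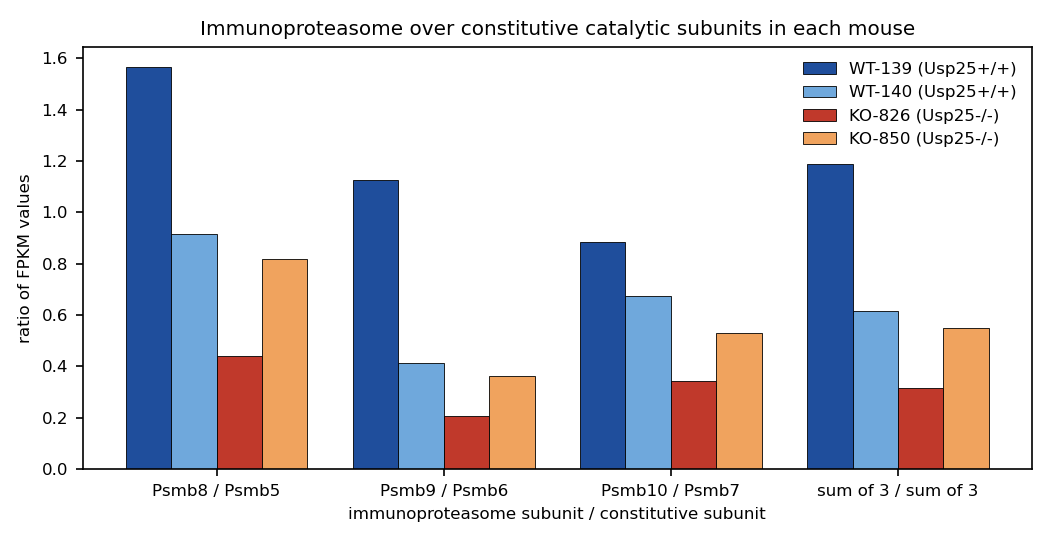
Ratio of FPKM values of immunoproteasome to constitutive catalytic subunits on the vertical axis, 1 bar for each mouse, for the 3 pairs and for the sums of 3. In the sums WT-139 stands at 1.19, WT-140 at 0.618, KO-826 at 0.317 and KO-850 at 0.551.

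The class II chains showed another order, with WT-140 highest, WT-139 lowest and both Usp25-/- mice between them. H2-Aa, the alpha chain of I-A (chr17:34406276-34424772), stood at 238 and 1113 FPKM in the Usp25+/+ pair against 576 and 623 FPKM in the Usp25-/- pair. H2-Ab1, its beta chain (chr17:34400154-34406363), stood at 221 and 880.5 against 387 and 472 FPKM. H2-Eb1, the beta chain of I-E, stood at 91.0 and 460.5 against 238 and 275 FPKM. The groups overlapped in all 3, and the log2 differences, 0.22 ± 0.77, -0.05 ± 0.71 and 0.32 ± 0.79 (SE), were smaller than their errors. WT-140 exceeded WT-139 by 4.68-fold, 3.98-fold and 5.06-fold in these genes, more than any gap between the genotype means. H2-Aa and H2-Ab1 overlap at their ends on opposite strands.

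The invariant chain and the loading genes followed the chains. Cd74 stood at 539.5 and 2540.2 against 1096 and 1742 FPKM. H2-DMa stood at 20.9 and 114 against 67.2 and 76.4 FPKM, and H2-DMb1 at 44.0 and 179.8 against 82.4 and 97.0 FPKM. These genes code for the alpha and beta chain of the peptide exchanger. H2-DMb2, a second beta chain gene beside H2-DMb1, stood at 7.91 and 25.7 against 13.0 and 20.5 FPKM, or 0.143 to 0.211 of the H2-DMb1 level in the same mouse. The pair shares 27.1% of the windows of H2-DMb1, which makes both levels uncertain. Ctss, the cathepsin that trims Cd74, stood at 1448 and 4079 against 3654 and 3629 FPKM, and Ifi30, a thiol reductase of the lysosome, at 165 and 360 against 280.2 and 294 FPKM. All of these had WT-139 lowest and WT-140 highest.

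The ratios of H2-Aa and of Cd74 to H2-Ab1 varied far less than the levels of these genes. H2-Aa over H2-Ab1 was 1.07, 1.26, 1.49 and 1.32 in that order of mice, while H2-Ab1 itself spanned 221 to 880.5 FPKM. Cd74 over H2-Ab1 was 2.44, 2.88, 2.83 and 3.69 in the same mice. Both chains and Cd74 ranked these 4 libraries in the same order, from WT-139 through KO-826 and KO-850 to WT-140, which is a description of 4 points.

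H2-Oa and H2-Ob, the chains of the H2-DM inhibitor known from B cells, did not share that order. H2-Oa stood at 5.61 and 8.77 against 1.17 and 5.24 FPKM, with no overlap and KO-826 far below the rest. Its log2 difference was -1.13 ± 0.57 (SE), and -0.37 without KO-826. H2-Ob stood at 0.872 and 1.42 against 0.810 and 3.55 FPKM. KO-850 had the highest H2-Ob, whereas WT-140 had the highest H2-Oa. Of the 4 tested genes of a B cell list, 3 were highest in KO-850 and 1, Cd22, in WT-140. Cd79a, a B cell receptor chain and 1 of the 3, stood at 8.06 FPKM in KO-850 against 1.56 to 1.88 FPKM in the other 3 mice. Covariation of H2-Oa and H2-Ob with these genes was not measured. H2-Eb2 was below the limit for testing, at no more than 0.550 FPKM and listed at 0 in KO-826.

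Without WT-139, 14 of the 15 tested class II genes were lower in Usp25-/- mice, with a median log2 difference of -0.67, a fit in which Usp25+/+ rested on WT-140 alone. Without WT-140, 4 of the 14 class II genes tested were lower, with a median of 0.95. The class II direction thus depended on which Usp25+/+ mouse was compared. Over the 17 class I, loading and immunoproteasome genes, 12 were lower without WT-139 and 14 without WT-140, with medians of -0.41 and -0.89. Among all genes tested, 51.5% were lower without WT-139 and 44.2% without WT-140.

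**Figure D3:**
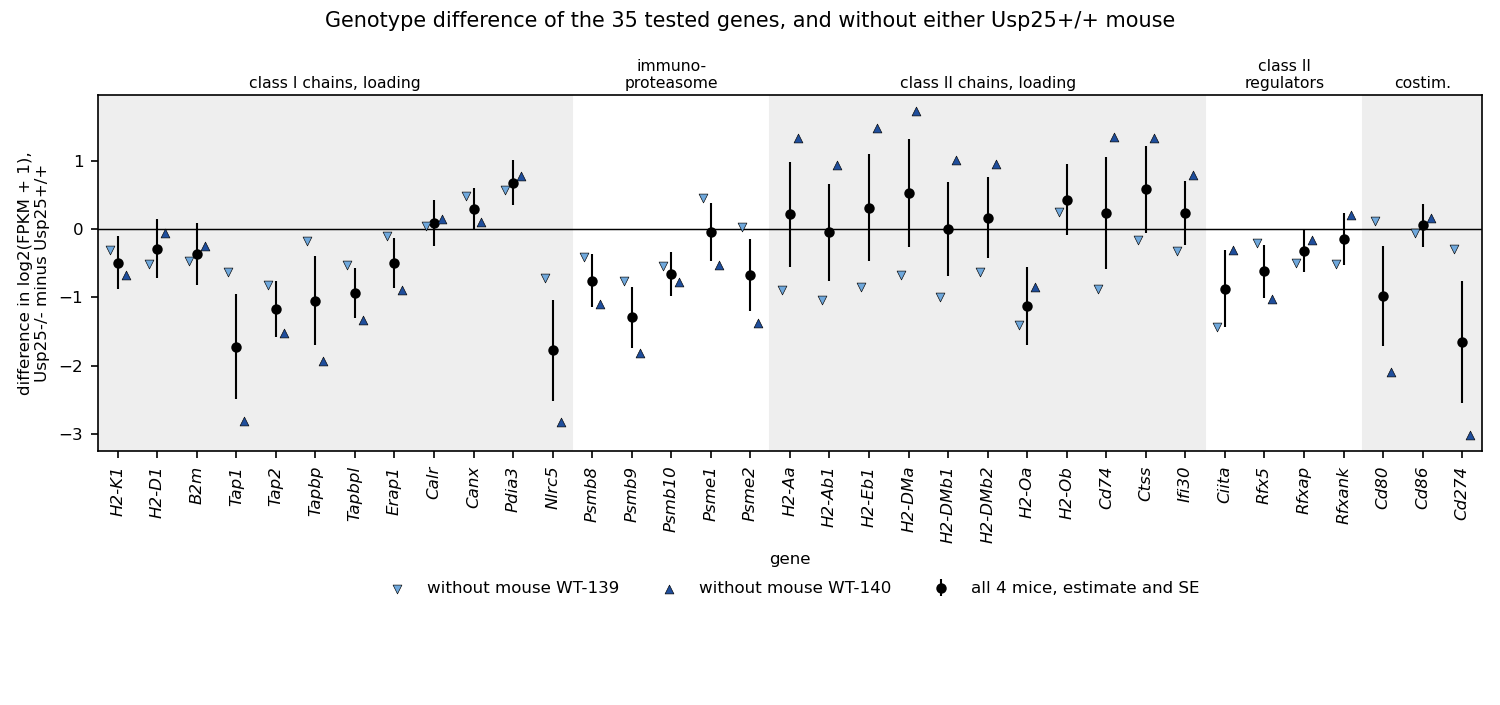
Difference of Usp25-/- minus Usp25+/+ in log2(FPKM + 1) on the vertical axis for the 35 tested genes, with circles and SE bars for all 4 mice and triangles for the estimate without WT-139 or without WT-140. Most class II chain and loading genes lie above 0 without WT-140 and below 0 without WT-139, whereas Tap1, Tap2, Psmb9 and Nlrc5 lie below 0 in all 3 fits.

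The regulators of class II were low in every library. Ciita, the class II transactivator, stood at 1.32 and 4.10 against 0.303 and 1.72 FPKM. WT-140 was highest, as for the chains, but KO-826 rather than WT-139 was lowest. H2-Ab1 over Ciita was accordingly 1278 in KO-826 and between 168 and 275 in the other 3. Rfx5, Rfxap and Rfxank, the subunits of the complex that binds the X box, stood between 1.89 and 5.76 FPKM. Rfx5 and Rfxap were lower in both Usp25-/- mice, at 5.08 and 2.44 against 2.07 and 1.89 FPKM and at 3.91 and 5.21 against 3.09 and 3.77 FPKM. Rfxank overlapped.

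The NF-Y subunits and coactivators of the same promoters form a list of 9 genes, all tested. Of these 8 had lower means in Usp25-/- mice, against 46.4% of all genes tested, and 0 had an unadjusted p under 0.05 by limma. WT-139 was highest for 7 of the 9 and KO-826 lowest for 6. Nfya, the subunit that contacts the Y box, stood at 18.03 and 14.0 against 1.02 and 11.2 FPKM, and Nfyc at 17.1 and 21.3 against 10.6 and 13.8 FPKM. Endosomal proteases of class II processing, with their inhibitor Cst3, were lower in 2 and higher in 5 of 7. In 6 of the 7 WT-140 was highest. The lower genes were Ctsz, at 796 and 977 against 586 and 684 FPKM, and Ctsb, at 798 and 892 against 644 and 699 FPKM, both with no overlap. Ctsh, a higher one, stood at 289 and 471 against 557 and 461 FPKM, with overlap.

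Of the costimulatory ligands, Cd274 and Cd80 were far higher in WT-139 than in the other 3 mice, and Cd86 was not. Cd274, which codes for the inhibitory ligand PD-L1, stood at 374 and 55.6 against 45.3 and 45.5 FPKM. Its groups did not overlap, and the log2 difference of -1.65 ± 0.89 (SE) became -0.29 without WT-139. Cd80, a ligand of CD28 and CTLA-4, stood at 48.9 FPKM in WT-139, while the other 3 mice lay between 9.75 and 11.1 FPKM. Cd86, its relative, stood between 12.4 and 17.3 FPKM, with overlap. Without WT-140, limma called Cd274 (log2 difference -3.01, adjusted p = 0.0300) and Cd80 (-2.09, adjusted p = 0.0481), 2 of the 34 genes of the group tested, where it called 1.38% of all genes. In that fit WT-139 alone stood for Usp25+/+ and was assumed to vary like the Usp25-/- mice. Without WT-139 neither was called, and Cd80 was 0.12 higher in Usp25-/- mice.

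Among 8 further ligands of this kind, 6 were tested, 4 with lower and 2 with higher means in Usp25-/- mice and 0 at an unadjusted p under 0.05 by limma. Cd40, a receptor that licenses antigen-presenting cells, stood at 13.0 and 3.53 against 0.962 and 2.84 FPKM, with no overlap. Pdcd1lg2, the gene of PD-L2, stood at 8.69 and 0.931 against 1.32 and 1.11 FPKM, so that only WT-139 differed. Their T cell receptors were low. Ctla4 stood at 5.38 and 5.84 against 0.831 and 4.34 FPKM, Icos between 2.20 and 3.32 FPKM in all mice, and Cd28 did not exceed 1.35 FPKM. Over the 5 receptor genes 4 were tested, all 4 with lower means in Usp25-/- mice, where 46.4% of all genes were lower. Of the 4, 0 had an unadjusted p under 0.05 by limma. Cd70 was listed at 0 in every mouse.

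The signalling genes from interferon gamma to MHC showed the order of the class I genes in part. WT-139 was highest for 9 of the 10 tested, against 12 of the 17 class I, loading and immunoproteasome genes. KO-826 was lowest for 5 of the 10, against 11 of those 17. Among all genes tested these shares were 29.7% and 24.4%. Of 12 listed genes 10 were tested, 9 with lower means in Usp25-/- mice, where 46.4% of all genes were lower, and 2, Irf1 and Irf8, lower at an unadjusted p under 0.05 by limma, which 1.06% of all genes were. Ifng was at 8.36 and 0.456 FPKM in Usp25+/+ mice and listed at 0 in both Usp25-/- mice. It was not tested, since only WT-139 reached 1 FPKM. Irf1, which binds class I and Ciita promoters, stood at 242 and 78.6 against 30.6 and 46.0 FPKM, and Irf8, a factor of myeloid cells, at 28.7 and 22.3 against 9.39 and 16.2 FPKM. Irf1 and Irf8 each had WT-139 highest, KO-826 lowest and no overlap between the genotypes. The receptor genes Ifngr1 and Ifngr2 differed little, from 69.7 to 87.1 FPKM and from 33.1 to 42.7 FPKM over the 4 mice.

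Class I and class II genes lie interleaved on chromosome 17, and the Usp25+/+ mice differed in opposite directions over parts of it. Of the 36 genes 16 lie there, over 1351.6 kb in the mm9 build. Psmb9, Tap1, Psmb8 and Tap2 follow one another between H2-DMb1 and H2-Ob. Across these 4 genes WT-139 exceeded WT-140 by 0.68 to 2.19 on the log2(FPKM + 1) scale. In the flanking H2-DMa, H2-DMb2 and H2-DMb1 on one side and H2-Ab1, H2-Aa and H2-Eb1 on the other, WT-139 was lower than WT-140, by differences of -1.58 to -2.40. Differences were smaller in H2-Ob, next to Tap2, at -0.37, in H2-Oa at -0.56 and in H2-Eb2 at 0.01. The class I genes were not all higher in WT-139, since H2-D1 stood at -0.45.

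**Figure D4:**
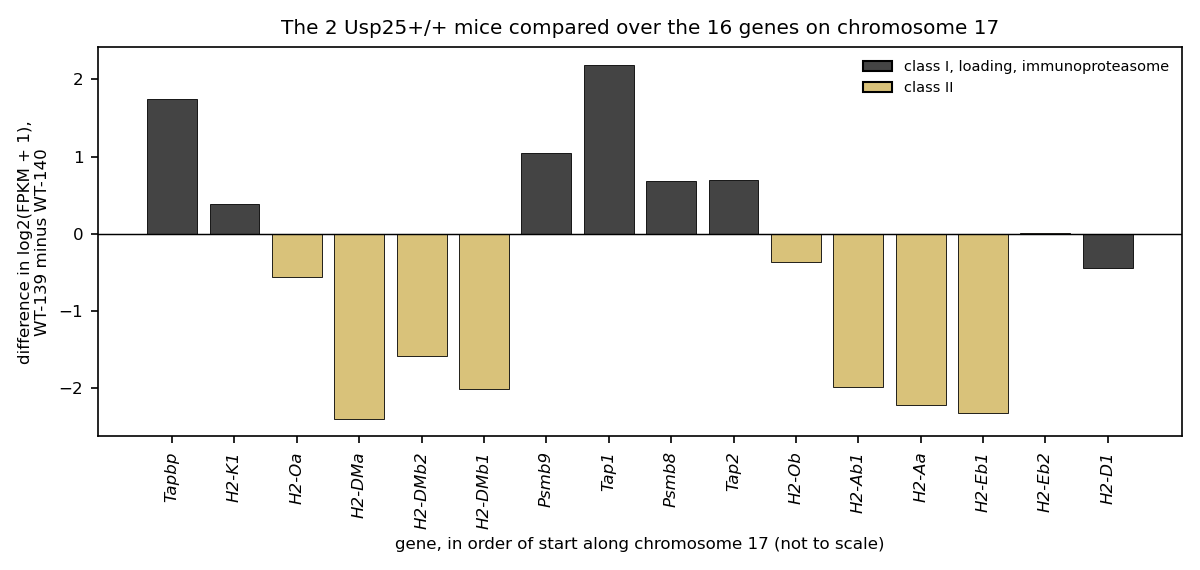
Difference between WT-139 and WT-140 in log2(FPKM + 1) on the vertical axis, 1 bar for each of the 16 genes in their order along chromosome 17, dark for class I, loading and immunoproteasome genes and light for class II. The block of Psmb9, Tap1, Psmb8 and Tap2 is higher in WT-139, and the H2-DM and H2-A genes on its sides are higher in WT-140.

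Markers of antigen-presenting and other cells also varied over the 4 mice, in differing orders, and covariation with these genes was not measured. Over 10 dendritic cell genes, 7 of them tested, the summed level was 131 and 242 FPKM in Usp25+/+ and 120.4 and 187 FPKM in Usp25-/- mice. Most of it was Itgax, at 96.1, 208, 99.4 and 139.8 FPKM in the same order. Flt3, which defines these cells, did not exceed 0.969 FPKM. Of the 7 tested, 2, Itgax included, were highest in WT-140, and 5 were highest in KO-850 and lowest in KO-826. The 8 B cell genes, 4 of them tested, summed to 12.3 and 35.2 against 13.5 and 39.2 FPKM. Cd22 alone gave 28.1 FPKM of the sum in WT-140, whereas Ms4a1, Cd79a and Cd79b were highest in KO-850, and Pax5 was listed at 0 in all mice but KO-850. The 10 macrophage and monocyte genes summed to 929 and 1656 against 1049 and 985.3 FPKM, and Cd68 ran from 331 to 874 FPKM with WT-140 highest. Adgre1, a macrophage receptor, was highest in WT-139, at 142 against 110 FPKM in WT-140 and 72.5 and 76.5 FPKM in the Usp25-/- mice. The 8 alveolar macrophage genes summed to 6886 and 9897 against 9793 and 7243 FPKM. Most of that was Chil3, at 6219 and 8777 against 8882 and 6380 FPKM. Of the 8, 5 were lowest in WT-139 and 1 was highest there. The 8 T cell genes summed to between 7.90 and 23.4 FPKM, the 6 NK cell genes to between 4.52 and 22.7 FPKM and the 5 colon muscle genes to between 3.05 and 4.22 FPKM over the 4 mice. The 3 genes of all leukocytes summed to 684 and 796 against 449 and 570 FPKM. The 6 epithelial genes were all higher in both Usp25-/- mice, where 19.0% of all genes were, and all 6 were highest in KO-826. They summed to 798 and 716 against 3223 and 1241 FPKM.

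Per unit of Ptprc, the pan-leukocyte gene, H2-Ab1 ran from 1.80 in WT-139 to 18.97 in WT-140. Tap1 per unit of Ptprc was 0.666 and 0.369 in Usp25+/+ and 0.157 and 0.329 in Usp25-/- mice, and Cd274 was 3.05 and 1.20 against 0.889 and 1.05. With Ptprc as the divisor the groups did not overlap for Tap1 and Cd274, and they did for H2-Ab1 and B2m. B2m per unit of Ptprc was 20.0 and 61.4 in Usp25+/+ and 34.1 and 56.2 in Usp25-/- mice. Ptprc was highest in WT-139. Laptm5, another gene of the leukocyte list, was highest in WT-140, at 323 and 606 against 299 and 393 FPKM. Levels per unit of Laptm5 were not computed. All 8 neutrophil genes were highest in WT-139, as were 15 of the 35 tested antigen presentation genes, against 29.7% of all genes tested. Tap1, Nlrc5, Cd80, Cd274, Psme1 and Psme2 were among the 15. Over the other 3 mice, 7 of the 8 neutrophil genes were lowest in WT-140, as were Cd80, Psme1 and Psme2. Tap1, Nlrc5 and Cd274 were among the 14 of the 35 for which both Usp25-/- mice were below both Usp25+/+ mice (14.7% of all genes tested). Of the 10 lung epithelial genes 7 were lowest in WT-139, and the gap in their sum to WT-140 was mainly Sftpc, at 339 FPKM in WT-139 and 2347 FPKM in WT-140. Scgb1a1, of the same list, was highest in WT-139, at 741 FPKM. The part of cell numbers in these differences was not tested.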

How the data were processed

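Bowtie 0.12.2 and the mm9 build appear in the submitters' processing notes. The authors deposited FPKM values, 1 column for each mouse, per the file headers. For the tool that computed them, the annotation, strandedness and filters, the entry is not given in the sources used here. The members and lists were chosen with earlier results of these data known.

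Of 24421 symbols, 27 turned into dates were left out. Values were analysed as log2(FPKM + 1), which understates the change of low genes, for 12103 genes at 1 FPKM in at least 2 mice. Limma 3.58.1 in R 4.3.3 compared Usp25-/- with Usp25+/+ across all genes on both sides, with a mean-variance trend, Benjamini-Hochberg adjustment over all genes and a threshold of 0.05. The model had no block, since the labels state neither litter nor batch. The p-values reflect only how these 4 animals vary, and 2 mice a group limit the precision. The code was tested on simulated data.

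Depth is unknown. The most frequent FPKM times length over 2487 genes with 1 exon gave WT-139, KO-826 and KO-850 about 1.25, 0.791 and 0.741 times the depth of WT-140, which is rough, with 1.98% to 3.46% of values above 0 on it. No interval or floor was computed. Positions come from Gencode M1 (mm9), where the longer record was taken for Ciita and Psmb9, and transcript windows from its coding transcripts, which lack Nlrc5. Promoters are from RefSeq on GRCm38.p6. The X box, interferon-stimulated and NF-kappaB motifs were shortened to 9 letters after the files were read.

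All 36 members are accounted for. The other genes named are Usp25, the 2 tested genes with the smallest p of a pathway list, Irf1, Ifng, Psmb5 to Psmb7 and, from marker lists, their first 2 genes and any listed at 0 in every mouse, of which only some are described. Ctsb, Cd79a, Cd79b, Cd22, Pax5, Sftpc, Scgb1a1, Cd68, Itgax, Krt20, Cd28, Laptm5, Ifngr1 and Ifngr2 were picked after their values were seen. Plots used Python 3.11.15 with pandas 2.3.3 and matplotlib 3.10.9. Some genes of the rule are not reported here. Alternatives covered the pseudocount, filter, scaling, variance trend and each mouse left out.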

Additional observations from a re-analysis of the deposited data

How the results depend on the processing

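Pseudocount, filter, scaling and variance settings left 0 genes called (338 to 571 at an unadjusted p under 0.05 by limma) and turned 1 gene of the group, H2-DMb1, from 0.0040 to -0.029 with median-of-ratios scaling and to -0.0097 with a common total. Leaving out 1 mouse gave 0 to 163 called genes (163 without WT-140), 20 to 28 members lower, a class I median of -0.89 to -0.41, a class II median of -0.67 (without WT-139) to 0.95 (without WT-140), -0.13 without KO-850, and an immunoproteasome log2 ratio difference of -1.51 to -0.56. Ranges of the log2 difference for the genes whose sign turned were -0.52 to 0.45 for Psme1, -1.38 to 0.034 for Psme2, -0.89 to 1.33 for H2-Aa, -0.85 to 1.48 for H2-Eb1, -0.67 to 1.73 for H2-DMa, -1.0001 to 1.008 for H2-DMb1, -0.62 to 0.96 for H2-DMb2, -0.88 to 1.36 for Cd74, -0.16 to 1.33 for Ctss, -0.33 to 0.79 for Ifi30, -2.09 to 0.12 for Cd80, -0.17 to 0.28 for Cd86, -1.04 to 0.95 for H2-Ab1 and -0.51 to 0.21 for Rfxank. The cause of these turns was not tested. No paired analysis was possible because the groups share no replicate number. Without WT-139 the difference also shrank by over 1.5 times, to -0.18 for Tapbp, -0.53 for Tapbpl, -0.096 for Erap1, -0.41 for Psmb8 and -0.21 for Rfx5. Read depth is unknown, and a value listed at 0, as for Ifng, is not shown to be absent.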
